A study of Mus musculus with 26 samples.

Results

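Rbfox1, Tbx4, St18, Ptn, Mdga2, Aqp7, Duoxa1 and Inpp5j are 8 mouse genes that had at most 2 reads over all 6 WT livers and many reads in liver tumours. They were picked by symbol from a table of 35976 genes because their WT counts were at or near 0 and their tumour means were higher under both drivers. The difference between tumours and WT is therefore described here and not tested. The working description of the 8, silent in liver and on in tumours, held in most tumours for Aqp7, Duoxa1 and Inpp5j. For Rbfox1, Tbx4, St18, Ptn and Mdga2 it held mainly for 4 of the 20 tumour libraries, which held 87.2 to 99.3% of the summed tumour level of each of these genes.

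The 8 genes come from several pathways. Rbfox1 is an RNA-binding protein that sets alternative splicing in neurons, heart and skeletal muscle, Tbx4 is a T-box transcription factor of limb and lung development, and St18 is a zinc finger factor of the Myt1 family. Ptn (pleiotrophin) is a secreted growth factor that binds heparin and the receptor phosphatase Ptprz1, and Mdga2 is a membrane-anchored protein that binds neuroligins and keeps them from neurexins at synapses. Aqp7 is a channel for water and glycerol known from fat cells and kidney, Duoxa1 is the maturation factor that brings the hydrogen peroxide producing oxidase Duox1 to the cell surface, and Inpp5j is a phosphatase that removes the 5-phosphate from inositol lipids.

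The tumours came from mice given tamoxifen on postnatal day 28 and followed for 6 to 12 months. Cyp1a2_CA (10 libraries from 9 animal numbers) carried Cyp1a2-CreERT2, a tamoxifen-dependent Cre recombinase under the promoter of a gene of hepatocytes around the central vein, with 1 Ctnnb1(ex3) floxed allele and both Arid2 alleles floxed. Gls2_CA (9 libraries from 5 animal numbers) carried the same floxed alleles under Gls2-CreERT2, whose promoter belongs to a gene of hepatocytes around the portal vein. Cyp1a2_C (1 library) carried Cyp1a2-CreERT2 and the Ctnnb1(ex3) allele without a floxed Arid2 allele. WT (6 libraries) was control liver of C57BL/6J mice that received Cre by an adeno-associated virus and were kept for up to 12 months. Tumour mice were a C57BL/6J and Swiss Webster mix, so strain, virus, tamoxifen and tumour genotype cannot be told apart against WT. Ctnnb1 encodes beta-catenin, and loss of its exon 3 removes the part that marks the protein for degradation. Arid2 is a subunit of a chromatin remodelling complex. The labels give tumour and control pieces as liver and do not say how much normal tissue a piece held.

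Total counts per library were 36992043 to 49254470 in tumours and 13486530 to 16975288 in WT, with no overlap. Levels are given as CPM, the counts of a gene relative to the scaled total of its library. Ttn encodes titin of muscle. It reached 8670 to 30200 CPM in 4 tumour libraries, with 2.26 to 92.9 CPM in the 16 remaining ones and 1.14 to 2.21 CPM in WT. The 4 are Cyp1a2_CA replicates 6 and 8, Gls2_CA replicate 3 and the Cyp1a2_C library, and they are called the Ttn-high libraries below. The summed level of 7 hepatocyte markers was 430 to 11800 CPM in the Ttn-high libraries, 8780 to 42400 CPM in the other tumour libraries and 66900 to 88900 CPM in WT. Most of it was Alb (medians 3600, 8480 and 55600 CPM in the same order). Apoa1, Ttr, Serpinc1 and Fgb also had lower medians in both tumour sets than in WT. Those of Hnf4a were 308, 818 and 690 CPM and those of Cebpa 104, 250 and 281 CPM. Ttn made up nearly all of the summed level of 8 striated muscle markers. In the Ttn-high libraries the next highest was Tnnt3, a troponin of fast muscle, at 1.04 to 36.5 CPM, while Ckm, the creatine kinase of muscle, was at 0 to 0.0483 CPM, Myh4 at 0 to 0.0705 CPM, Myl1 at 0.0966 to 0.486 CPM and Acta1 at 0.0966 to 2.43 CPM. The summed level of 8 neuron markers was 39.3 to 700 CPM in the Ttn-high libraries, 7.45 to 18.9 CPM in the other tumour libraries and 2.28 to 3.52 CPM in WT. Most of it was Map2, at 30.8 to 624 CPM in the Ttn-high libraries. Elavl4 was at 0 to 70.2 CPM and Tubb3 at 0.452 to 4.32 CPM there, against at most 1.43 and 0.0475 CPM in the other tumour libraries, while Stmn2 (at most 0.15 CPM) and Nefl (at most 0.118 CPM) were near 0 in all tumours. Rbfox3 went the other way, with a median of 1.17 CPM in the Ttn-high libraries and 2.54 CPM in the other tumour libraries. The medians of Syp were 0.668 and 0.29 CPM, with 0.532 CPM in WT, and those of Snap25 were 0 in all 3. Arid2 averaged 31.1 ± 4.05 CPM in Cyp1a2_CA and 36.3 ± 8.46 CPM in Gls2_CA, against 67.2 ± 4.33 CPM in WT (SD, n = 9, 5 and 6 animals), and fell in both (edgeR log2 fold changes -1.18 and -0.97, adjusted p = 6.2e-08 and 0.00023). The Cyp1a2_C library, which has no floxed Arid2 allele, was also below WT. It is 1 of the 4 Ttn-high libraries, in which Arid2 was at 35.2 to 47.1 CPM, against 60.1 to 72.8 CPM in WT. The fall is therefore no check of the Arid2 genotype, and its cause was not tested. The whole-gene count of Ctnnb1 cannot show the loss of an exon.

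All 8 genes were higher in tumours than in WT by the choice of the genes. The level of every Cyp1a2_CA animal lay above that of every WT animal for 8 of the 8 genes, and this held for 23.4% of the 16841 genes tested in that comparison. Every Gls2_CA animal lay above every WT animal for 6 of the 8, against 29.9% of 14976 genes tested. St18 and Mdga2 were the exceptions, each with 4 of 5 Gls2_CA animals above WT. In the fits against WT, 8 of the 8 genes passed the low-count filter with Cyp1a2_CA and 3 of the 8 with Gls2_CA (Aqp7, Duoxa1 and Inpp5j). Nothing is read from these counts, since the genes were chosen by this contrast. In bulk tissue, fewer cells that express a gene and less RNA of it per cell cannot be told apart.

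**Figure D1:**
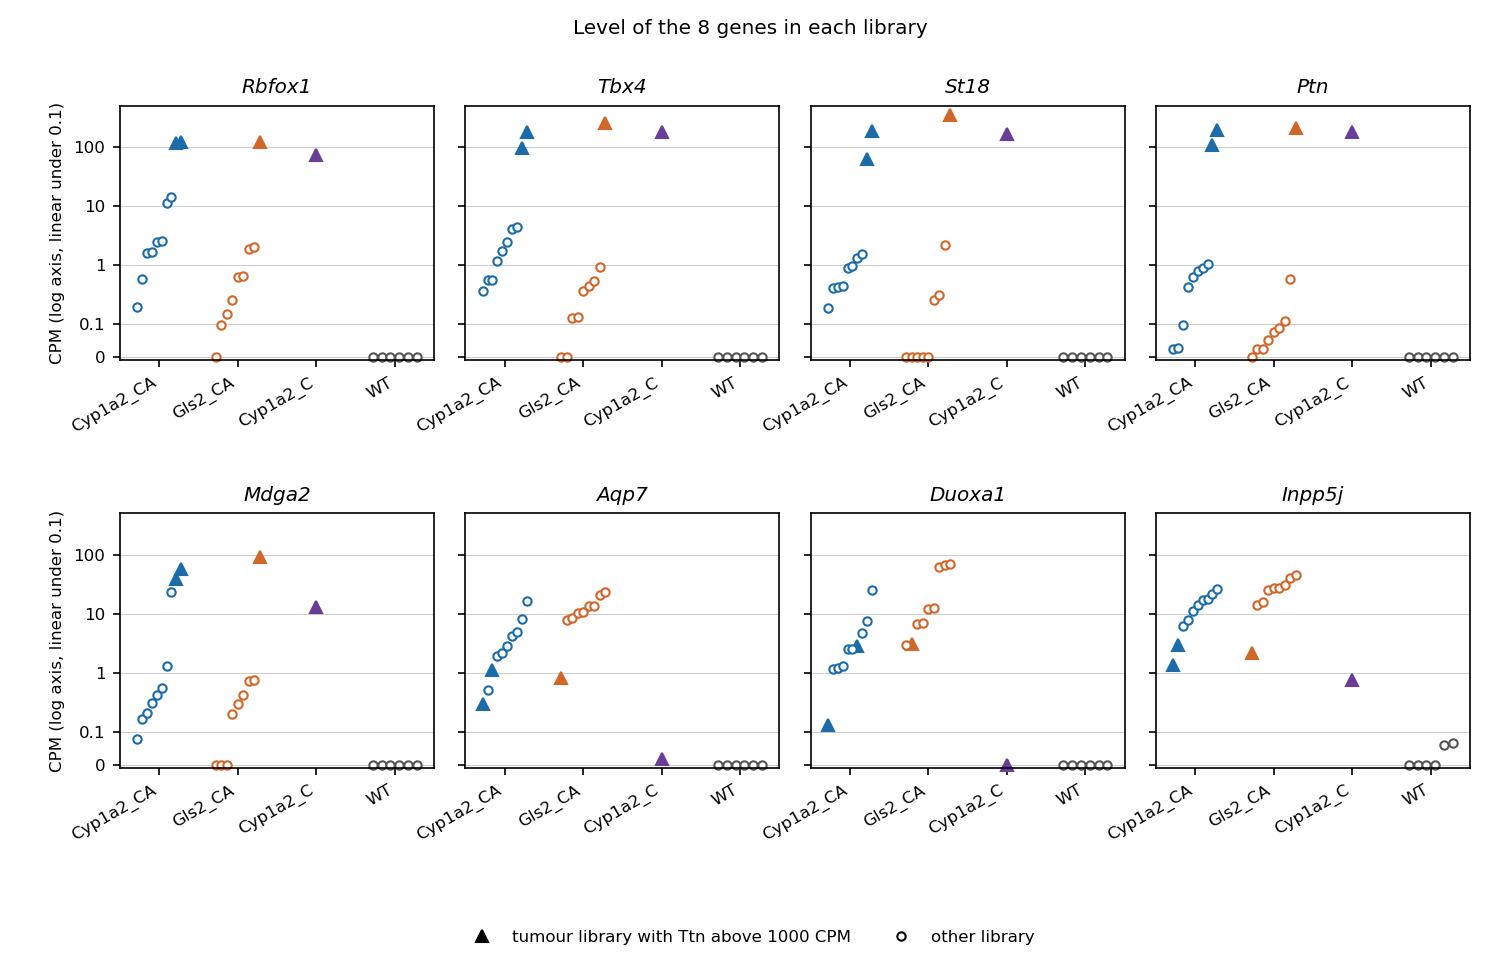
Each panel plots 1 gene as CPM (log axis, linear under 0.1) for every library of Cyp1a2_CA (10), Gls2_CA (9), Cyp1a2_C (1) and WT (6), with the points of a group drawn in order of level. Filled triangles are the 4 libraries with Ttn above 1000 CPM, which lie above the open circles for Rbfox1, Tbx4, St18 and Ptn (and above all but 1 circle for Mdga2), and below every other tumour library for Inpp5j.

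Rbfox1 (chr16:5885355-7411526, mm10, plus strand, protein-coding) had 3828 to 6205 reads in each Ttn-high library and 0 to 575 reads in the other 16 tumour libraries. In CPM it was at 117 and 123 in Cyp1a2_CA replicates 6 and 8, 123 in Gls2_CA replicate 3 and 71.6 in the Cyp1a2_C library. The other tumour libraries had a lowest value of 0, a median of 1.15 and a highest value of 14.0 CPM (Cyp1a2_CA replicate 1), and all 6 WT libraries had 0 reads. No other tumour library reached the lowest Ttn-high library. Beside that split the gene was present at a low level in nearly all tumours: 15 of the 16 other libraries had a read, and Cyp1a2_CA replicates 1 and 9 stood at 14.0 and 11.2 CPM.

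Averaged over animals, Rbfox1 was at 30.2 ± 50.6 CPM in Cyp1a2_CA (SD, n = 9) and 25 ± 54.1 CPM in Gls2_CA (SD, n = 5), with WT at 0. With 3 counts over all of WT taken as its floor (0.0318 CPM), these means were at least 951-fold and at least 788-fold higher. Without the animals of the Ttn-high libraries the same bounds were 153-fold and 26.0-fold. The SD of each group exceeded its mean, so a group mean of this gene describes no single tumour.

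Most tested regulators related to Rbfox1 rose in tumours, and every tumour library lay above every WT library for Rbfox2. Of 13 regulators of neural splicing, 9 were tested against WT in each comparison. With Cyp1a2_CA 8 of the 9 rose and 0 fell, beside 38.3% of all genes higher and 32.7% lower. With Gls2_CA 7 rose and 0 fell, beside 39.2% of all genes higher and 34.0% lower. The median log2 fold change of the list was 2.30 and 2.26, against 0.17 and 0.14 over all genes tested. Rbfox2, the paralog that most tissues use, was at 594 ± 179 CPM in Cyp1a2_CA and 597 ± 105 CPM in Gls2_CA, against 26.8 ± 2.46 CPM in WT. Its log2 fold changes were 4.39 (SE 0.207, adjusted p = 8.8e-11) and 4.38 (SE 0.153, adjusted p = 6.8e-09) with edgeR. Rbfox2 did not follow the Ttn split: it was at 514 to 554 CPM in the Ttn-high libraries and 442 to 987 CPM in the other tumour libraries. Mbnl1, a splicing regulator of muscle, rose by 3.41 and 3.46 on the log2 scale (adjusted p = 1.7e-09 and 3.2e-08). Celf4, a neuronal splicing and translation regulator, rose by 4.86 and 4.43 (adjusted p = 1.0e-05 and 3.7e-06), and its Ttn-high libraries (38.1 to 244 CPM) all lay above the other tumour libraries (3.01 to 25.6 CPM). Rbfox3, the neuronal nuclear antigen NeuN, rose by 1.47 and 1.52 (adjusted p = 0.0067 and 0.0027), to 2.19 ± 1.34 CPM in Cyp1a2_CA and 2.29 ± 0.971 CPM in Gls2_CA, against 0.745 ± 0.313 CPM in WT. It no longer passed when gene length and GC content were offset (adjusted p = 0.089 and 0.075).

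Tbx4 (chr11:85886422-85916097, mm10, plus strand, protein-coding) showed the same split with a wider gap. It had 94.6 and 180 CPM in Cyp1a2_CA replicates 6 and 8, 258 CPM in Gls2_CA replicate 3 and 178 CPM in the Cyp1a2_C library. In the other 16 tumour libraries the lowest value was 0, the median 0.551 and the highest 4.42 CPM (Cyp1a2_CA replicate 2), and WT was at 0. The Ttn-high libraries held 97.5% of the summed tumour CPM of the gene. Its means over animals were 31.7 ± 62.6 CPM in Cyp1a2_CA and 51.4 ± 114 CPM in Gls2_CA, at least 998-fold and 1620-fold higher than WT, and at least 61.4-fold and 9.59-fold higher without the animals of the Ttn-high libraries.

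Tbx4 was not the only T-box gene with this split. T (brachyury, the founding T-box factor, which marks early mesoderm and notochord) was at 29.7 to 545 CPM in the Ttn-high libraries, 0 to 1.53 CPM in the other tumour libraries, with 0 reads in WT. Tbx5, the factor of forelimb and heart, was at 59.0 to 257 CPM against 0 to 0.334 CPM in the other tumour libraries, and Tbx1, of the pharyngeal arches, at 46.0 to 221 CPM against 0 to 13.1 CPM. Tbx2, which lies 44474 bases from Tbx4 on the same strand, was at 9.03 to 13.1 CPM in the Ttn-high libraries and 0.965 to 2.21 CPM in the other tumour libraries, with 4.57 to 6.54 CPM in WT between them. Of 16 T-box genes listed, 6 were tested with Cyp1a2_CA (3 rose, 0 fell) and 5 with Gls2_CA (2 rose, 0 fell). Of all genes tested, 38.3% rose and 32.7% fell with Cyp1a2_CA, and 39.2% rose and 34.0% fell with Gls2_CA. Tbx3, a liver T-box gene, rose by 1.53 (SE 0.236, adjusted p = 2.7e-05) and 1.59 (SE 0.232, adjusted p = 6.5e-05) and Mga, a T-box protein that pairs with Max, by 2.85 and 2.65 (adjusted p = 4.9e-09 and 6.1e-07). Tbx1 was tested only with Cyp1a2_CA, where its log2 fold change was 9.45 (adjusted p = 0.0043), and it was not tested once the Ttn-high libraries were left out. It had 0 to 2 reads in each WT library, so only a call of higher was possible for it. Against WT the list medians were 0.89 with Cyp1a2_CA and -0.21 with Gls2_CA.

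St18 (chr1:6487231-6860940, mm10, plus strand, protein-coding) reached the highest level of the 8 genes in any library. It had 184 and 62.6 CPM in Cyp1a2_CA replicates 6 and 8, 341 CPM in Gls2_CA replicate 3 and 164 CPM in the Cyp1a2_C library. The other 16 tumour libraries ran from 0 through a median of 0.362 to 2.18 CPM (Gls2_CA replicate 2), and 5 of them, like all 6 WT libraries, had 0 reads. Those 5 were all Gls2_CA libraries, so St18 was detected in 4 of 9 Gls2_CA libraries and in 10 of 10 Cyp1a2_CA libraries. Several of the 5 share an animal number with each other and with a library that had reads. By animal, St18 lay above WT in 4 of 5 of Gls2_CA and 9 of 9 of Cyp1a2_CA. Its animal means were 27.9 ± 61.7 CPM in Cyp1a2_CA and 68.2 ± 151 CPM in Gls2_CA, at least 879-fold and 2150-fold higher than WT, and at least 27.1-fold and 19.3-fold without the animals of the Ttn-high libraries. The other members of its family, neuronal zinc finger factors, split in the same way. Myt1l was at 20.1 to 192 CPM in the Ttn-high libraries and 0 to 0.905 CPM in the other tumour libraries, and Myt1 at 1.13 to 28.1 CPM and 0 to 0.102 CPM. Neither passed the low-count filter against WT.

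Ptn (chr6:36714929-36810220, mm10, minus strand, protein-coding) was the most uneven of the 8. It had 109 and 197 CPM in Cyp1a2_CA replicates 6 and 8, 209 CPM in Gls2_CA replicate 3 and 177 CPM in the Cyp1a2_C library. The other 16 tumour libraries lay between 0 and 1.06 CPM with a median of 0.0935 CPM, and WT was at 0. The 4 Ttn-high libraries held 99.3% of the summed tumour CPM, and the most reads in any other tumour library were 43. Animal means were 34.0 ± 69.8 CPM in Cyp1a2_CA and 41.7 ± 92.8 CPM in Gls2_CA, at least 1070-fold and 1310-fold higher than WT. Without the animals of the Ttn-high libraries they were 0.491 ± 0.439 CPM (n = 7) and 0.194 ± 0.279 CPM (n = 4), at least 15.5-fold and 6.10-fold higher.

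Ligands and receptors of the pleiotrophin system did not move as a unit. Of 14 listed, 12 were tested with Cyp1a2_CA (3 rose, 6 fell, median -0.32) and 11 with Gls2_CA (3 rose, 4 fell, median -0.32). The shares over all genes were 38.3% higher and 32.7% lower with Cyp1a2_CA, and 39.2% and 34.0% with Gls2_CA. Mdk (midkine), the only close relative of Ptn, was at 3.43 ± 4.43 CPM in Cyp1a2_CA and 3.76 ± 5.31 CPM in Gls2_CA, against 0.476 ± 0.111 CPM in WT. It rose by 2.80 (SE 0.783, adjusted p = 0.0048) and 2.95 (SE 0.751, adjusted p = 0.0038), and by 1.42 and 1.43 without the Ttn-high libraries. The receptor phosphatase Ptprs rose by 4.91 and 5.15 (adjusted p = 7.7e-06 and 7.2e-05), with 594 to 1510 CPM in the Ttn-high libraries and 50.9 to 238 CPM in the other tumour libraries. Without the Ttn-high libraries its values were 3.89 and 3.56. Ptprz1, the main receptor phosphatase of Ptn, was at 4.37 to 107 CPM in the Ttn-high libraries and at most 1.24 CPM in the other tumour libraries. Its log2 fold change with Cyp1a2_CA was 4.43 (adjusted p = 0.0065), and it was not tested once the Ttn-high libraries were left out. Ptprz1 had 1 to 2 reads in each WT library, so only a call of higher was possible for it. The heparan sulfate carrier Sdc4 fell (-2.35 and -2.54, adjusted p = 3.9e-09 and 2.8e-05), as did the endocytic receptor Lrp1 (-2.13 and -2.24, adjusted p = 5.0e-08 and 2.4e-06). Alk, a receptor kinase linked to both ligands, had at most 9 reads in any tumour library.

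Mdga2 (chr12:66466060-67222549, mm10, minus strand, protein-coding) was the least strict member of this set. It had 56.2 and 37.9 CPM in Cyp1a2_CA replicates 6 and 8, 90.8 CPM in Gls2_CA replicate 3 and 12.9 CPM in the Cyp1a2_C library. Cyp1a2_CA replicate 7, which is not a Ttn-high library, stood at 23.6 CPM, above the Cyp1a2_C library. The remaining tumour libraries reached at most 1.31 CPM, the median of the 16 was 0.303 CPM, and WT was at 0. Means over animals were 13.4 ± 21 CPM in Cyp1a2_CA and 18.2 ± 40.2 CPM in Gls2_CA, at least 421-fold and 574-fold higher than WT. Without the animals of the Ttn-high libraries the bounds were 121-fold, which rests on replicate 7, and 7.93-fold. Exons of Mdga2 share 1651 bases with the processed pseudogene Gm19001 on the opposite strand, for which the table has no row, and whether reads of the pair were separated is not given in the sources used here.

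Most tested genes of the synaptic list around Mdga2 rose in tumours, but of the neuroligins, which Mdga2 binds, only Nlgn2 was called. Of 7 genes listed (Mdga1, neuroligins and neurexins), 6 were tested with Cyp1a2_CA (5 rose, 0 fell, median 2.53) and 4 with Gls2_CA (4 rose, 0 fell, median 3.15). Beside these, 38.3 and 39.2% of all genes were higher and 32.7 and 34.0% lower. Mdga1, tested only with Cyp1a2_CA, had 0 to 5 reads in each WT library. It passed the low-count filter mainly through tumour reads, so a call of lower was hardly possible for it. Nlgn3 did not pass with Cyp1a2_CA (log2 fold change 1.0, adjusted p = 0.42), and its median was 2.84 CPM in the Ttn-high libraries, 0.0743 CPM in the other tumour libraries and 0.323 CPM in WT. Nlgn1 was not tested and had reads in 1 of the 16 other tumour libraries. Nrxn3, a presynaptic adhesion protein, was at 12.2 ± 14.8 CPM in Cyp1a2_CA and 7.13 ± 3.82 CPM in Gls2_CA, against 1.46 ± 0.357 CPM in WT. It rose by 3.02 with Cyp1a2_CA (SE 0.697, adjusted p = 0.0012) and by 2.22 with Gls2_CA (SE 0.416, adjusted p = 0.00045). Nlgn2, a postsynaptic partner, followed the Ttn split without overlap, with 46.1 to 76.9 CPM in the Ttn-high libraries and 2.60 to 8.82 CPM in the others. Nlgn2 rose by 2.56 and 3.0 (adjusted p = 0.0073 and 0.0081) with all animals and by 0.82 and 0.80 without the Ttn-high libraries. Nrxn2 rose by 1.80 and 3.30 (adjusted p = 0.0066 and 2.9e-07), and with the offset for length and GC the Cyp1a2_CA value was 0.26 (adjusted p = 0.69).

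Aqp7 (chr4:41033074-41048139, mm10, minus strand, protein-coding) ran the other way. It was at 0.504 to 22.8 CPM, with a median of 8.36 CPM, in the 16 other tumour libraries, and at 0.302, 1.11, 0.821 and 0.0187 CPM in Cyp1a2_CA replicates 6 and 8, Gls2_CA replicate 3 and the Cyp1a2_C library. WT was at 0 reads in all 6 libraries. Aqp7 had a read in all 20 tumour libraries, and the Ttn-high libraries held 1.49% of its summed tumour CPM. All but 1 of the other 16 libraries lay above the highest Ttn-high library, the exception being Cyp1a2_CA replicate 4. Means over animals were 4.55 ± 5.04 CPM in Cyp1a2_CA and 13.4 ± 9.10 CPM in Gls2_CA, at least 143-fold and 423-fold higher than WT, and at least 178-fold and 523-fold without the animals of the Ttn-high libraries.

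Glycerol and water channels were mixed. Of 14 aquaporins and glycerol enzymes listed, 8 were tested against WT in each comparison. With Cyp1a2_CA 3 rose and 4 fell (median -0.81), beside 38.3% of all genes higher and 32.7% lower. With Gls2_CA 2 rose and 3 fell (median -0.56), beside 39.2% higher and 34.0% lower. Aqp9, through which hepatocytes take up glycerol, was at 665 ± 307 CPM in Cyp1a2_CA and 615 ± 281 CPM in Gls2_CA, against 264 ± 21 CPM in WT (log2 fold changes 1.25 and 1.11, adjusted p = 0.0011 and 0.0018). Gk, which phosphorylates glycerol, rose by 1.82 and 1.99 (adjusted p = 9.8e-05 and 0.00025), while Gpd1, which links glycerol 3-phosphate to glycolysis, was lower by log2 fold changes of -1.71 and -1.39 (adjusted p = 6.9e-05 and 0.021). Aqp11 fell as well (-1.85 and -1.90, adjusted p = 7.3e-05 and 0.00014). Aqp9, Aqp11 and Gpd1 were each lower in all 4 Ttn-high libraries than in any other tumour library. Aqp3, the glycerol channel that neighbours Aqp7 at 44583 bases on the same strand, had at most 2 reads in any library. The summed level of 6 adipocyte markers was 2.17 to 8.41 CPM in the Ttn-high libraries, 3.52 to 29.2 CPM in the other tumour libraries and 3.06 to 5.42 CPM in WT. Most of it was Fabp4, at 2.08 to 7.95, 3.46 to 28.9 and 3.06 to 5.25 CPM in the same order. Lep was at 0 in all 20 tumour libraries and Adipoq at 0 in the Ttn-high libraries. In any tumour library Adipoq, Plin1 and Retn reached at most 0.112 CPM and Cidea at most 0.728 CPM. The summed level of 5 kidney tubule markers was 0.102 to 4.59 CPM over all tumour libraries and 1.28 to 3.67 CPM in WT.

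Duoxa1 (chr2:122302191-122313730, mm10, minus strand, protein-coding) varied most among tumours of the 3 genes that were low in the Ttn-high libraries. In the 16 other tumour libraries it ran from 1.15 CPM (Cyp1a2_CA replicate 4) through a median of 6.84 CPM to 69.3 CPM (Gls2_CA replicate 7). Gls2_CA replicates 1, 7 and 9 stood at 67.3, 69.3 and 60.8 CPM, and the highest Cyp1a2_CA library, replicate 9, at 25.4 CPM. The Ttn-high libraries had 0.132 and 2.82 CPM (Cyp1a2_CA replicates 6 and 8), 3.02 CPM (Gls2_CA replicate 3) and 0 reads (Cyp1a2_C), and WT had 0 reads in all 6. They overlapped the other tumours, of which 10 of 16 lay above all 4. Animal means were 5.11 ± 7.95 CPM in Cyp1a2_CA and 27.3 ± 30.2 CPM in Gls2_CA, at least 161-fold and 859-fold higher than WT.

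Libraries that share an animal number differed several-fold in Duoxa1. The libraries of 1 Gls2_CA animal (replicates 7 to 9) spanned 12.1 to 69.3 CPM, a 5.71-fold range, those of another (replicates 4 to 6) spanned 2.94 to 12.5 CPM, a 4.24-fold range, and those of a Cyp1a2_CA animal (replicates 4 and 5) were at 1.15 and 7.44 CPM, a 6.48-fold range. In that Cyp1a2_CA animal Aqp7 also differed 8.23-fold, with the same library higher, while Inpp5j differed 1.45-fold. The labels do not say whether the libraries of an animal come from separate tumours.

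Duoxa1 and Duox1, the oxidase it serves, start 1942 bases apart on opposite strands of chromosome 2. Over the 20 tumour libraries Duox1 had the highest Spearman correlation with Duoxa1 of all 14407 genes with a mean of at least 1 CPM (rho 0.90). This is a description over libraries of which some share an animal. Duox1 had 2 to 1145 reads in tumour libraries and 0 to 2 in WT. It was at 4.02 ± 6.69 CPM in Cyp1a2_CA and 7.26 ± 7.45 CPM in Gls2_CA, against 0.0535 ± 0.0492 CPM in WT, and rose by 6.05 (SE 1.38, adjusted p = 0.0011) and 6.90 (SE 0.884, adjusted p = 2.4e-05). With so few WT reads it passed the low-count filter only through tumour reads. Only a call of higher was therefore possible, and these tests add nothing to the counts. Without the Ttn-high libraries the Gls2_CA value was 7.14, and Duox1 did not pass the low-count filter with Cyp1a2_CA. The related pair Duox2 and Duoxa2 stayed low: Duox2 had at most 40 reads in a tumour library, and Duoxa2 had 5 reads in Gls2_CA replicate 1 and 0 in the other tumour libraries. Exons of Duoxa1 and Duoxa2 share 682 bases on opposite strands, and the strand setting of the counting is not given in the sources used here. Of 13 genes for DUOX and NADPH oxidase subunits, 10 were tested in each comparison. With Cyp1a2_CA 2 rose and 2 fell (median 0.18), beside 38.3% of all genes higher and 32.7% lower. With Gls2_CA 3 rose and 0 fell (median 0.36), beside 39.2% higher and 34.0% lower. Noxo1, the organizer subunit of Nox1, rose by 2.04 and 2.16 (adjusted p = 6.9e-05 and 0.0017).

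**Figure D2:**
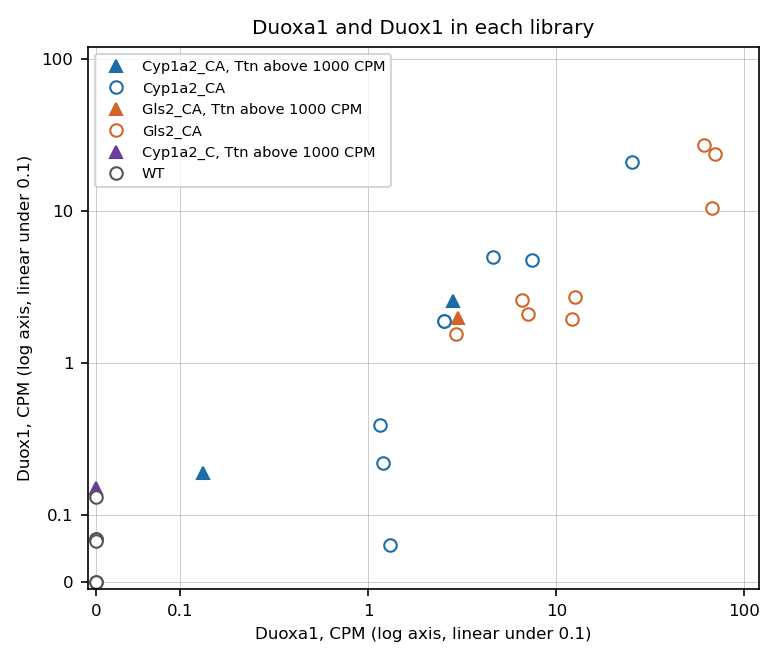
Each point is 1 library, with Duoxa1 on the x axis and Duox1 on the y axis, both as CPM (log axes, linear under 0.1), coloured by group, with filled triangles for the 4 libraries with Ttn above 1000 CPM. Cyp1a2_CA replicate 9 and Gls2_CA replicates 1, 7 and 9 are the 4 highest libraries for both genes, and the 6 WT libraries lie at 0 for Duoxa1 and at or below 0.13 for Duox1.

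The promoters of the pair are shown because the genes are read outward from 1 short region and were high in the same tumours, and those of Mdga2, Ptn and Aqp7 because they cover the range of CpG content among the 8 genes. Each is 250 bases before to 50 after the start, from RefSeq on GRCm38.p6, printed 5′ to 3′ along the gene's strand with CpG pairs in capitals. Duoxa1 is chr2:122313681-122313980 (minus strand), Duox1 chr2:122315422-122315721 (plus strand), Mdga2 chr12:67222500-67222799 (minus strand), Ptn chr6:36810130-36810429 (minus strand) and the first of 2 promoters of Aqp7 chr4:41048087-41048386 (minus strand).
Duoxa1: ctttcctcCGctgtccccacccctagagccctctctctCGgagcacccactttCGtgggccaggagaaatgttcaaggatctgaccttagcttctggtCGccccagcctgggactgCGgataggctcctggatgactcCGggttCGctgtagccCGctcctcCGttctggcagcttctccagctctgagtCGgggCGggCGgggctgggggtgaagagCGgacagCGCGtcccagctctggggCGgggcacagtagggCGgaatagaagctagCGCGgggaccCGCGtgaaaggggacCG
Duox1: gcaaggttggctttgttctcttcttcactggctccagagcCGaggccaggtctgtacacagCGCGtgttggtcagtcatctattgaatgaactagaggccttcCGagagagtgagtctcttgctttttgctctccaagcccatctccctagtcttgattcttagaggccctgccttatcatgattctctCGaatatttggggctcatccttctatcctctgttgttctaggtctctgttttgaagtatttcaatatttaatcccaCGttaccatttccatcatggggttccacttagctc
Mdga2: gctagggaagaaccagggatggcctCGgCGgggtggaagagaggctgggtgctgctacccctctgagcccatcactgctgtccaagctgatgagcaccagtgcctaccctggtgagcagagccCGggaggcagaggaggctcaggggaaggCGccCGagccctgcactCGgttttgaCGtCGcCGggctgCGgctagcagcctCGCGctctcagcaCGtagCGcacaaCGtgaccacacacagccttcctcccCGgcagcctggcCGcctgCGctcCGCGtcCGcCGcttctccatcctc
Ptn: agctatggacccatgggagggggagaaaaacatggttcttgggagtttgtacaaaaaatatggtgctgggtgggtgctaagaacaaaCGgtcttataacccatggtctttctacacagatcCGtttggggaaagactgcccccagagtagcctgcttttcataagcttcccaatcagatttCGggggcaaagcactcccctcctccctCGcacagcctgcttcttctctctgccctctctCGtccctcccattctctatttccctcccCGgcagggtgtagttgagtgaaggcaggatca
Aqp7: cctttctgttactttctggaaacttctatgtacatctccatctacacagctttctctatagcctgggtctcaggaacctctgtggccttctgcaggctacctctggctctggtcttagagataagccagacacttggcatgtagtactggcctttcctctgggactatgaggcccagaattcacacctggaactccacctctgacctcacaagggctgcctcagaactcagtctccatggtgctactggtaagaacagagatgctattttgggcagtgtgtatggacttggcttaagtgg

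The Duoxa1 promoter held 22 CpGs and 65.7% GC and that of Duox1 6 CpGs and 46.7% GC, against a median of 7 CpGs and 52.7% GC over 32851 promoters of the same length. Of the 8 genes 6 had a promoter in the table, with 8 promoters in all. Mdga2 also had 22 CpGs, Tbx4 had 8, Ptn 6, Rbfox1 3 and 7, and Aqp7 0 and 3. CpG content therefore did not separate the genes high in the Ttn-high libraries (Mdga2 and Ptn, for example) from those low in them (Duoxa1 and Aqp7). The letters ATCAAAG (the TCF/LEF factors of Wnt signalling), TGANTCA (AP-1) and CACGTG (an E-box) were searched on both strands and had no match in the 8 promoters. Over all promoters 3.73, 7.81 and 7.15% held them. TATAAA (the TATA box) had 1 match, in Tbx4, against 13.6% of all promoters. St18 and Inpp5j are named only.

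Inpp5j (chr11:3494375-3504821, mm10, minus strand, protein-coding) was the most evenly expressed of the 8 among tumours. In the 16 other tumour libraries it ran from 6.17 through a median of 19.8 to 45.9 CPM, and in Gls2_CA replicates 1, 2 and 4 to 9 alone from 14.1 to 45.9 CPM. The Ttn-high libraries had 1.36 and 2.99 CPM (Cyp1a2_CA replicates 6 and 8), 2.17 CPM (Gls2_CA replicate 3) and 0.748 CPM (Cyp1a2_C), all below the lowest of the 16. WT libraries had 0 reads in 4 and 1 read in each of replicates 3 and 5. Animal means were 11.8 ± 7.88 CPM in Cyp1a2_CA and 23.5 ± 12.0 CPM in Gls2_CA, 558-fold (95% counting interval 155 to 4610) and 1110-fold (307 to 9150) above the WT mean, which rests on 2 reads. The intervals cover counting error of the WT reads only. Without the animals of the Ttn-high libraries the Gls2_CA mean was 28.8 ± 1.80 CPM (n = 4), the smallest relative spread of any member. Exons of Inpp5j share 401 bases with Pla2g3 on the opposite strand. Pla2g3, a secreted phospholipase, had 6 to 34 reads in tumour libraries, against 40 to 1774 of Inpp5j, and 0 in WT.

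Most other phosphoinositide phosphatases rose in tumours as well. All 13 listed were tested, of which 10 rose and 1 fell with Cyp1a2_CA (median 1.25), beside 38.3% of all genes higher and 32.7% lower. With Gls2_CA 9 rose and 1 fell (median 1.16), beside 39.2% higher and 34.0% lower. Synj1 and Synj2 are 5-phosphatases of endocytosis. Synj1 was at 274 ± 43.2 CPM in Cyp1a2_CA and 261 ± 53.8 CPM in Gls2_CA, against 26.5 ± 1.83 CPM in WT. Its log2 fold changes were 3.30 (SE 0.128, adjusted p = 1.9e-11) and 3.22 (SE 0.167, adjusted p = 2.8e-08), and those of Synj2 were 4.18 and 4.70 (adjusted p = 1.5e-07 and 2.0e-06). Inpp4a, a 4-phosphatase, rose by 2.84 and 2.87 (adjusted p = 4.4e-09 and 1.6e-08). Inpp4b, its paralog, rose by 4.06 and 4.27 (adjusted p = 0.00089 and 0.00027) and by 2.13 and 2.91 without the Ttn-high libraries, in which it was at 70.5 to 111 CPM against 5.34 to 22.1 CPM in the other tumour libraries.

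**Figure D3:**
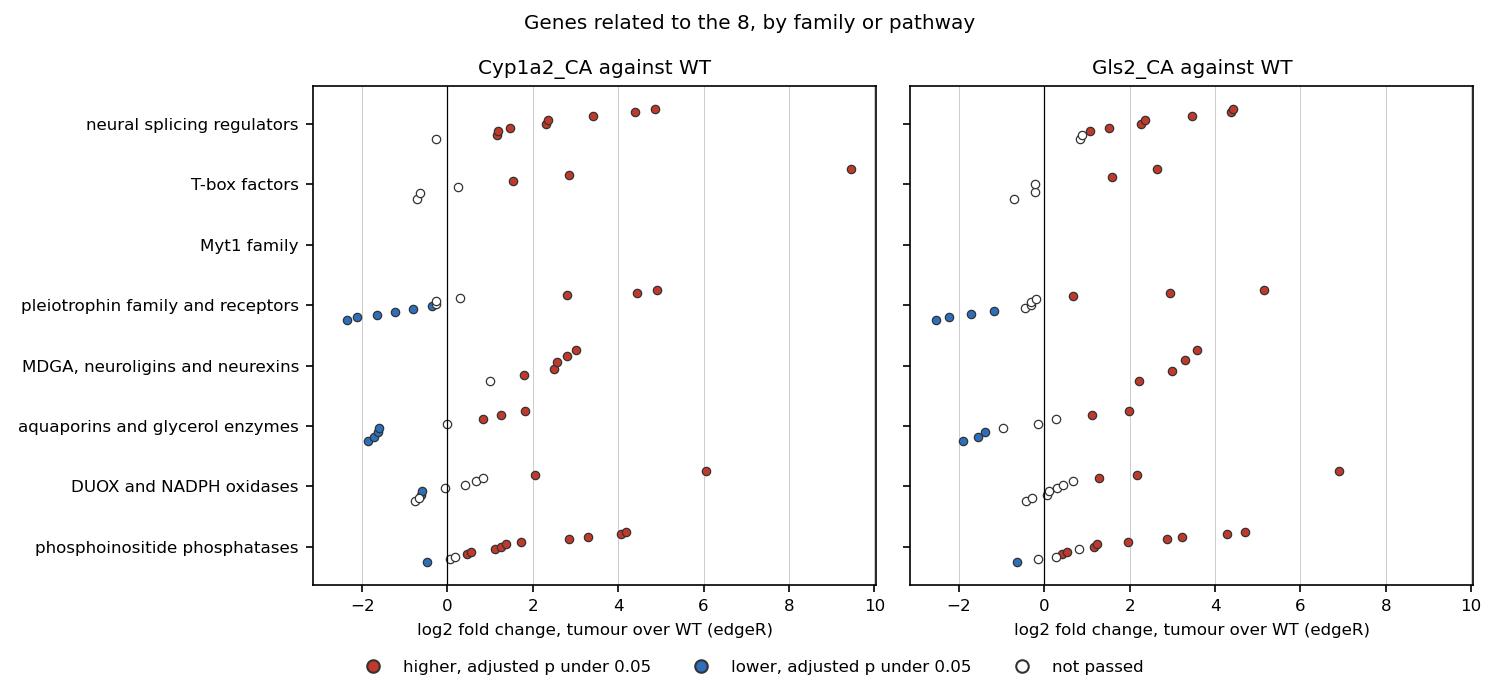
Each point is 1 tested gene of the lists related to the 8 genes, with its log2 fold change of tumour over WT (edgeR) on the x axis and the list on the y axis, Cyp1a2_CA on the left and Gls2_CA on the right. Red points rose and blue points fell at an adjusted p under 0.05, and open points did not pass. Splicing regulators, phosphoinositide phosphatases and the synaptic list lie mostly to the right of 0, and the pleiotrophin and aquaporin lists lie on both sides.

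Over the 8 lists together, 64 of 92 genes were tested with Cyp1a2_CA, of which 34 rose and 13 fell, beside 38.3% of all genes higher and 32.7% lower. With Gls2_CA 60 were tested, of which 30 rose and 8 fell, beside 39.2% higher and 34.0% lower. Genes such as Duox1, Tbx1 and Ptprz1, with at most 2 reads in any WT library, could only be called higher. A call of lower was hardly possible for Mdga1 either, with at most 5. Such genes tilt these counts. Among the 76 of the 92 genes with at least 1 CPM in some tumour library, 18 had all 4 Ttn-high libraries above the other 16 and 5 had all 4 below. The share of all genes with such a split was not counted, so these numbers are not read as a trait of the lists. The 18 included Nova2, Elavl2, Aqp1, Nlgn1 and Nlgn3 beside those named above, and the 5 were Sdc2, Aqp9, Aqp11, Gpd1 and Gpd2.

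Genes next to the 8 were examined for regional changes. The nearest protein-coding genes on each side made 16 neighbours, of which 10 were tested with Cyp1a2_CA (6 rose, 2 fell) and 9 with Gls2_CA (4 rose, 2 fell). Beside these, 38.3 and 39.2% of all genes were higher and 32.7 and 34.0% lower. Duox1 (0 to 2 reads in each WT library) and Pla2g3 (0 reads, tested only with Cyp1a2_CA) entered through their tumour reads, so only a call of higher was possible for them. Dgki, a diacylglycerol kinase that lies 35802 bases upstream of Ptn on the same strand, shared the Ttn split of Ptn. It had 900 to 1999 reads in the Ttn-high libraries, 0 to 75 in the other tumour libraries and 0 to 1 in WT. Genes of the related lists showed this split as well, and a regional cause was not tested. Chrm2, a muscarinic receptor on the other side of Ptn, had 15 to 75 reads in the Ttn-high libraries and at most 8 in the others. Smtn, a smooth muscle protein next to Inpp5j, rose by 3.15 and 3.5 (adjusted p = 9.7e-06 and 7.8e-05) and was highest in the Ttn-high libraries (157 to 283 CPM, against at most 85.1 CPM in the other tumour libraries), the opposite of Inpp5j. Eef2kmt, next to Rbfox1, fell (-1.26 and -1.49, adjusted p = 9.3e-07 and 5.8e-06), as did Rps29, next to Mdga2 (-1.48 and -1.57, adjusted p = 9.3e-09 and 1.5e-07).

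The contrast between drivers asks whether tumours from central-vein hepatocytes differ from tumours from portal-vein hepatocytes. It is not independent of the choice of the genes, which asked for higher tumour means under both drivers. A gene high under only 1 driver could not enter the set. None of the 8 differed between Cyp1a2_CA and Gls2_CA at an adjusted p under 0.05 with edgeR, beside 0.0% of 17129 genes called higher and 0.0% called lower. At an unadjusted p under 0.05 there were 554 genes, and Duoxa1 was the only one of the 8 (unadjusted p = 0.022, adjusted p = 1.0). DESeq2 called 19 genes and the fit with every library as a replicate called 6, none of them among the 8, although DESeq2 gave no p for Rbfox1, Tbx4, St18 and Ptn. Duoxa1 had a log2 fold change of -2.40 (SE 0.935), lower in Cyp1a2_CA, Aqp7 of -1.54 (SE 0.771) and Inpp5j of -0.97 (SE 0.613). The 5 genes of the Ttn-high libraries had values of 0.25 (Rbfox1), -0.72 (Tbx4), -1.32 (St18), -0.31 (Ptn) and -0.48 (Mdga2), with SEs of 1.62 to 2.16. Each of these spans a wide range of true differences, so the groups are not shown to be alike.

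**Figure D4:**
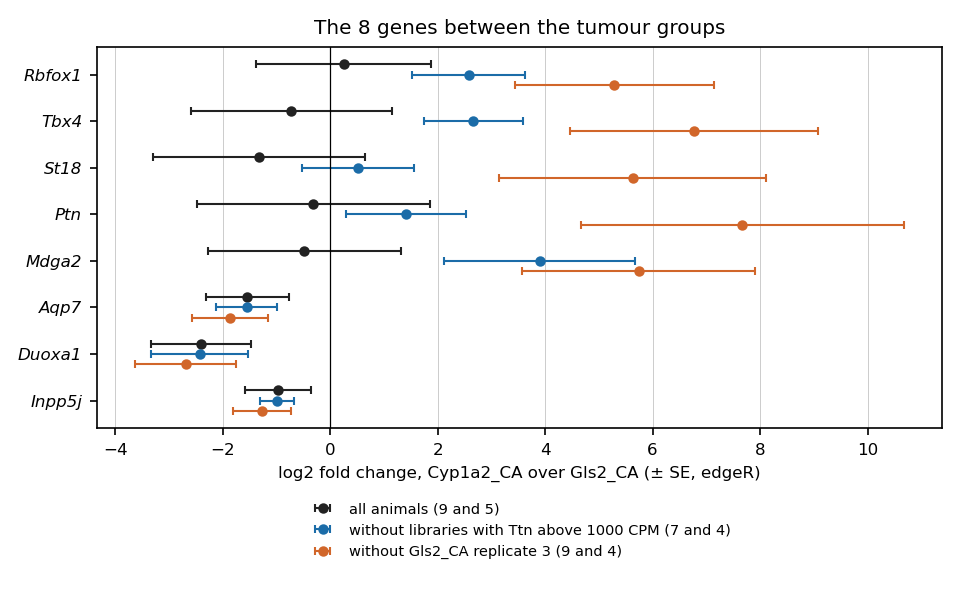
Points give the log2 fold change of Cyp1a2_CA over Gls2_CA with its SE (edgeR) for each of the 8 genes, in 3 fits: all animals, leaving out the libraries with Ttn above 1000 CPM, and leaving out Gls2_CA replicate 3. Rbfox1, Tbx4, St18, Ptn and Mdga2 lie between -1.32 and 0.25 with all animals and to the right of 0 in both other fits, and Aqp7, Duoxa1 and Inpp5j lie to the left of 0 in all 3.

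One library decided the direction of Tbx4, St18, Ptn and Mdga2, while the value of Rbfox1, near 0 with all animals, was negative in 6 of the 14 fits that left out an animal. Without Gls2_CA replicate 3, the only Ttn-high library of that group, the log2 fold changes were 5.29 (Rbfox1), 6.77 (Tbx4), 5.63 (St18), 7.67 (Ptn) and 5.74 (Mdga2), higher in Cyp1a2_CA, and none passed after adjustment. Without all Ttn-high libraries they were 2.58, 2.66, 0.52, 1.41 and 3.90. The values of Aqp7, Duoxa1 and Inpp5j in that fit were -1.55, -2.43 and -0.98. For these 3 the direction did not change when any animal was left out: Duoxa1 stayed between -3.41 and -1.70, Aqp7 between -2.11 and -1.25 and Inpp5j between -1.27 and -0.83.

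Within the 11 animals without a Ttn-high library, 28 pairs of the 8 genes were compared by Pearson and Spearman correlation of log2 CPM, with permutation tests adjusted over the pairs. The animals pool 7 of Cyp1a2_CA and 4 of Gls2_CA, and neither the correlation nor the permutation held the driver. None passed after adjustment. Without adjustment 6 pairs had a p under 0.05 by Pearson and 3 by Spearman. Tbx4 and Aqp7 had r = -0.77 (permutation p = 0.0063, adjusted 0.17) and rho = -0.81 (permutation p = 0.0041, adjusted 0.089), and r = -0.80 without the 2 animals farthest from the median of Tbx4. Rbfox1 and Inpp5j had r = -0.72 (permutation p = 0.012, adjusted 0.17) and rho = -0.78 (permutation p = 0.0063, adjusted 0.089), with r = -0.49 without the 2 farthest animals. Duoxa1 and Inpp5j had r = 0.67 (permutation p = 0.026, adjusted 0.22) and rho = 0.72 (permutation p = 0.016, adjusted 0.15), with r = 0.62 without the 2 farthest animals. In the fit between drivers on the same animals Tbx4 (2.66) and Rbfox1 (2.58) ran opposite to Aqp7 (-1.55), Duoxa1 (-2.43) and Inpp5j (-0.98), so these pairs and the driver difference cannot be told apart.

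The genes most like each of the 8 over the 20 tumour libraries differed between the 2 sets. For Rbfox1 they were Tnnt2, the cardiac troponin T (rho 0.87), Minpp1 (0.86) and Prph, an intermediate filament of peripheral neurons (0.85). Tnnt2 had a median of 400 CPM in the Ttn-high libraries and 0.397 CPM in the other tumour libraries. For Tbx4 they were Tnfrsf19 (0.93), the neuronal calcium channel Cacna1a (0.92) and Braf (0.90), and for Ptn Rsl24d1 (0.93) and the proline synthesis enzyme Pycr1 (0.89). For Mdga2 they were Nktr (0.91), Kmt2a (0.88) and Tex10 (0.86), and for St18 Trim32, Inip and D830031N03Rik (0.90 each). For Aqp7 they were the antioxidant enzyme Prdx6 (0.94), Mroh2a (0.93) and Xpnpep3 (0.92), for Duoxa1 after Duox1 Ctcflos (0.87) and Ctcfl (0.86), and for Inpp5j Gm1821 (0.89), Ubb (0.87) and Ccdc152 (0.85). These are ranks over libraries that include several from 1 animal, without a test.

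Compared per kilobase of exon, Tbx4 (27.8 to 75.7 CPM per kb) and Ptn (31.6 to 60.9 CPM per kb) were the highest in the Ttn-high libraries, followed by St18 (9.69 to 52.7 CPM per kb), Rbfox1 (16.3 to 28 CPM per kb) and Mdga2 (0.704 to 4.95 CPM per kb). The ranges of Tbx4, Ptn and St18 overlapped each other, that of Rbfox1 overlapped those of Tbx4 and St18 but lay below that of Ptn, and that of Mdga2 lay below all 4. In the other tumour libraries the order of medians was Inpp5j (3.88 CPM per kb), Aqp7 (2.96 CPM per kb), Duoxa1 (1.72 CPM per kb), Rbfox1 (0.261 CPM per kb), Tbx4 (0.162 CPM per kb), St18 (0.0560 CPM per kb), Ptn (0.0272 CPM per kb) and Mdga2 (0.0165 CPM per kb).

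Because tumour libraries were deeper than WT libraries, tumour counts were also thinned to the median WT total. Inpp5j kept a read in all 20 thinned tumour libraries, Aqp7 and Duoxa1 in 19, Rbfox1 in 18, Tbx4 and Mdga2 in 17, Ptn in 16 and St18 in 15. More than 2 reads, the most that any member had over all of WT, remained in 16 of the 16 other tumour libraries for Aqp7, Duoxa1 and Inpp5j, in 13 for Rbfox1, 12 for Tbx4, 10 for Mdga2, 9 for St18 and 7 for Ptn. A count of 0 in 1 WT library allows a level of up to 0.171 to 0.213 CPM, so the lowest tumour values of every gene but Inpp5j were not distinguishable from a single WT library. For Aqp7 and Duoxa1 these were Ttn-high libraries, at 0.0187 CPM for Aqp7 and at 0 and 0.132 CPM for Duoxa1. The floor over all 6 WT libraries was 0.0318 CPM. Of these values only the 0.132 CPM of Duoxa1 lay above it.

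Genes at or near 0 in WT were common, and genes present in every tumour were not. Of the 35976 genes, 15100 had at most 2 reads over the 6 WT libraries. Of these, 182 averaged at least 1 CPM in both tumour groups, but 28 had reads in all 20 tumour libraries, among them Aqp7 and Inpp5j. A median of at least 10 CPM in the Ttn-high libraries was reached by 99 of the 15100, of which 96 had a median under 1 CPM in the other 16 tumour libraries. A median of at least 1 CPM in those 16 was reached by 33, including Rbfox1, Aqp7, Duoxa1 and Inpp5j.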

How the data were processed

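The data are RNA-seq of 20 liver tumour libraries and 6 WT liver libraries of the mouse. Libraries were prepared from DNase-treated RNA of frozen fragments with Nugen Ovation reagents, per the labels' protocols. The deposited table holds the authors' counts of reads per gene symbol, without normalization, and the submitters' processing notes name mm10. Not given in the sources used here are the aligner, the counter, whether it used strand, and its gene models.

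Groups came from the genotype labels. Where titles share an animal number, the libraries were summed as 1 animal, so n counts animal numbers and p-values measure the spread between them. Each comparison used its own 2 groups in edgeR 4.0.16 under R 4.3.3 (filterByExpr, TMM factors, robust quasi-likelihood test, Benjamini-Hochberg over all genes, threshold 0.05). Rose and fell are used of genes past that threshold. CPM are counts relative to the TMM-scaled library total. A fold against a group at 0 used a floor of 3 counts over the group, a counting bound only. Pair correlations used log2 CPM (prior count 2) and 100000 permutations. DESeq2 1.42.0 was an alternative, and the others are named with their effects at the end. Figures were drawn with matplotlib 3.10.9 in Python 3.11.15. Steps were tested on simulated data.

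The 8 genes, the related lists, the markers and the Ttn threshold of 1000 CPM were chosen with earlier results of these data known. Genes named are the 8, any gene of the related or marker lists, the nearest protein-coding neighbours, the 3 genes with the highest Spearman correlation to each of the 8, and the genes of the genotypes. A few genes that this rule names are not reported here. Gene positions, exon length and GC were read from GENCODE M21 (mm10), which matched 26705 of 35976 symbols (74.2%), and promoters from RefSeq on GRCm38.p6. The hepatocyte list had 8 symbols, of which 7 were found.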

Additional observations from a re-analysis of the deposited data

Results flagged for a closer look

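Gaps between animals of a group were checked for the 8 genes in Cyp1a2_CA, in Gls2_CA and, for Inpp5j, in WT. Of these 17 sets of values, 8 were set apart by a wide gap between their extreme animal and the next. For normal, independent values chance gives about 1 such group in 20. That rate is no yardstick here, since the genes were chosen on these tumour values, CPM are skewed and 6 of the 8 are the same animal.

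In Gls2_CA (5 animals) the animal of replicate 3 was the extreme in 6 of the 8. It was highest for Rbfox1 (122 CPM, next animal 2.04), Tbx4 (256 CPM, next 0.656), St18 (339 CPM, next 2.24), Ptn (208 CPM, next 0.611) and Mdga2 (90.2 CPM, next 0.452), and lowest for Inpp5j (2.16 CPM, next 27.5). The same animal had Ttn above 1000 CPM, and the part of that difference in these values was not tested.

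In Cyp1a2_CA (9 animals) St18 was highest in the animal of replicate 6 (184 CPM, next 61.6), also a Ttn-high library. Duoxa1 was highest in the animal of replicate 9 (25.9 CPM, next 4.76), which is not.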

How the results depend on the processing

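No driver difference of the 8 genes was called under any alternative tried (RLE and upper-quartile factors, no filter, DESeq2, every library as a replicate, the Ttn-high libraries left out, a length and GC offset, each animal left out), although DESeq2 gave no p for Rbfox1, Tbx4, St18 and Ptn. The directions that changed were, on the log2 scale, Rbfox1 to -1.85 with DESeq2. With every library as a replicate, Ptn changed to 0.37 and Mdga2 to 0.19. Without the Ttn-high libraries Tbx4, St18, Ptn and Mdga2 changed to 2.66, 0.52, 1.41 and 3.90. Over fits that left out an animal, Rbfox1 ran from -0.44 to 5.29, Tbx4 from -1.96 to 6.77, St18 from -3.02 to 5.63, Ptn from -1.60 to 7.67 and Mdga2 from -1.22 to 5.74, with the upper ends without Gls2_CA replicate 3. Without that animal all 8 had an unadjusted p under 0.05, beside 1347 of 17348 genes, and without the Ttn-high libraries 6 did, beside 1018 of 16898 genes. In both fits 0 passed.

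Among related genes, 8 fell in Gls2_CA, and 13 did with upper-quartile factors and 14 with the length and GC offset. With that offset 3 neighbours rose in Cyp1a2_CA (6 without it) and 2 in Gls2_CA (4 without it). The upper-quartile factors moved the median of all genes from 0.17 to -0.05 in Cyp1a2_CA against WT and from 0.14 to -0.09 in Gls2_CA against WT. Of 479 values of named related and neighbour genes under an alternative, 474 kept direction and call and 5 lost the call. Of the fits that left out an animal, only the lowest and highest value of each gene entered. Fits in which a gene was not tested did not enter, so these numbers overstate stability. In Cyp1a2_CA against WT, Tbx1 and Duox1 were tested in 9 fits that left out an animal and Pla2g3 in 10. The other named genes tested there had 15. With all 14 animals, including the Ttn-high ones, 14 of 28 pairs passed by Spearman and 26 by Pearson correlation, against 0 by either without them. With tumour counts thinned to the WT depth, 3 of the 8 genes had every Gls2_CA animal above every WT animal, against 6. The causes of these changes were not tested.

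No paired analysis was possible because replicate numbers only name samples and pair none across groups. The labels confound tumours with strain and treatment, depth differed without overlap, and 1 Gls2_CA animal carried the Ttn-high values of its group.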

Other observations

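Of the other marker lists, the summed level of 5 cholangiocyte markers had a median of 167 CPM in the Ttn-high libraries, 47.4 CPM in the other tumour libraries and 44 CPM in WT. Nearly all of it was Spp1 (medians 146, 46.0 and 31.4 CPM in the same libraries). The medians of Krt19, Krt7, Epcam and Sox9 in the other tumour libraries lay below those in WT, for example Sox9 at 3.21 against 8.96 CPM. The summed level of 7 stellate cell and fibroblast markers was 302 to 1160 CPM in the Ttn-high libraries, 102 to 567 CPM in the other tumour libraries and 327 to 432 CPM in WT. Its members differed. In the same order, the medians were 150, 7.61 and 8.95 CPM for Pdgfra and 106, 12.1 and 15.5 CPM for Col1a1. Those of Lrat were 5.03, 6.09 and 35.4 CPM and those of Reln 71.2, 113 and 146 CPM. Dcn, Pdgfrb and Rgs5 had their highest medians in the Ttn-high libraries. The summed level of 6 glia and Schwann cell markers was 4.82 to 8.24, 2.50 to 8.63 and 1.14 to 1.92 CPM in the same order. Lung epithelium markers summed to at most 1.48 CPM and pancreatic islet markers to at most 0.468 CPM in any tumour library.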
